A study of Mus musculus with 4 samples.

Results

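The insulin-like growth factor 1 (IGF1) axis was examined in mouse embryonic fibroblasts (MEFs), the mixed mesenchymal cells that grow out of a dissociated embryo, through 8 genes: the ligand Igf1, its receptor Igf1r, and the binding proteins Igfbp2, Igfbp3, Igfbp4, Igfbp5, Igfbp6 and Igfbp7. These 8 were taken by name from the 36846 gene symbols of the transcript table, and the counts of their 33 transcripts were summed per symbol. There were 2 Dnmt3l-KO libraries and 2 WT libraries. Both genotypes were C57BL/6 MEF lines at passage 4, made from embryos of day 13.5 to 14.5 whose parents were Dnmt3l heterozygotes, and both were grown in DMEM with fetal bovine serum. The protein of Dnmt3l has no catalytic activity; it assists Dnmt3a and Dnmt3b, which place new DNA methylation. The knockout is constitutive. Total RNA was depleted of rRNA and copied with random primers, so reads cover whole transcripts. Nothing in the labels says whether the replicates came from separate embryos or separate lines, so p-values describe only how these libraries vary, and that variation may be technical.

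IGF1 and IGF2 are secreted peptides that bind the receptor tyrosine kinase Igf1r, which signals through insulin receptor substrates to PI3K, AKT and mTOR and promotes growth and survival of fibroblasts. Most IGF outside cells is held by the binding proteins, which lengthen its life, keep it from the receptor or deliver it to the cell surface, and which proteases such as Pappa cut to release it. Igfbp7 binds IGFs weakly and is often set apart as an IGFBP-related protein. Cultured fibroblasts secrete IGFs and several binding proteins themselves, and serum in the medium brings more that no RNA measurement sees.

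None of the 8 genes passed an adjusted p of 0.05 between Dnmt3l-KO and WT fibroblasts. Igfbp3, the main IGF carrier of serum, was 1.36-fold higher in Dnmt3l-KO, and Igfbp2, a binding protein abundant in fetal tissues, was 1.35-fold lower in Dnmt3l-KO. For these genes the libraries of the genotypes did not overlap, as was so for 32.8% of all genes tested. The CPM (counts scaled to library size) of the other 6 genes overlapped between genotypes. The level of Igf1 itself was low in both genotypes, while Igfbp7 was among the most abundant transcripts of the cells. Among the members' tested transcripts, the smallest p belonged to a predicted transcript of Igf1r, whose level in Dnmt3l-KO was about 1 log2 unit below WT; it passed an adjusted p of 0.05 with DESeq2 but not with edgeR.

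The libraries held 40681328 to 51465395 assigned reads. The median absolute log2 difference over the 14760 genes tested was 0.22 between the Dnmt3l-KO libraries, more than in any other pair of libraries, and 0.13 between the WT libraries. Pairs of 1 library from each genotype lay between these, at 0.18 to 0.20. Dnmt3l had 0 counts in both Dnmt3l-KO libraries and 6 and 1 counts in the WT libraries, so its level is too low in WT fibroblasts to check the genotype labels. All 10 fibroblast markers examined were detected, with summed levels of 10377 and 15593 CPM in Dnmt3l-KO and 12253 and 10822 CPM in WT. Epcam and Cdh1 of epithelium, Pecam1 and Cdh5 of endothelium, Myod1 and Myog of muscle and Adipoq and Plin1 of fat each stayed under 1 CPM in every library. Other genes of the same lists were higher, with Krt19 at 37.0 to 48.0 CPM, Kdr at 4.81 to 17.5 CPM, Acta1 at 118 to 263 CPM and Fabp4 at 4.19 to 8.29 CPM. Col2a1 of cartilage had 210 to 283 CPM. The full lists of other cell types summed to 41.5 to 53.8 CPM for epithelium, 6.53 to 20.2 CPM for endothelium, 3.97 to 4.81 CPM for leukocytes, 134 to 280.2 CPM for skeletal muscle, 119 to 160.4 CPM for neural cells, 9.98 to 15.6 CPM for fat and 250 to 348 CPM for cartilage. In such bulk RNA, fewer cells of a type and less RNA per cell cannot be told apart.

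Since Dnmt3l acts with enzymes that methylate CpG sites, the CpG content of the members' promoters is described here as context; methylation itself was not analysed. RefSeq promoters of GRCm38.p6, 300 bases from 250 before the transcript start to 50 after it, were found for 8 of 8 members, with 2 for Igfbp2. The sequences shown are those of Igfbp3 and Igfbp2, the genes whose libraries did not overlap between genotypes, and of Igf1r and Igf1, the members with the most and the fewest CpG sites. Each is written 5′ to 3′ along its gene, in lower case with every CpG in capitals.
Igfbp3, minus strand, chr11:7213874-7214173: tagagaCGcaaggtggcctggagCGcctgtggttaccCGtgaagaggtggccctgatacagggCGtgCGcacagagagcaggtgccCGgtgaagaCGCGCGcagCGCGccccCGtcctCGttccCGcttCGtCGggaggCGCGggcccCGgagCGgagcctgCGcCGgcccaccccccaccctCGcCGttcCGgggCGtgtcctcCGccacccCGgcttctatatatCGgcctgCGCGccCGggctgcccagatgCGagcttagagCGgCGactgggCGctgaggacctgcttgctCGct
Igfbp2, plus strand, chr1:72824230-72824529: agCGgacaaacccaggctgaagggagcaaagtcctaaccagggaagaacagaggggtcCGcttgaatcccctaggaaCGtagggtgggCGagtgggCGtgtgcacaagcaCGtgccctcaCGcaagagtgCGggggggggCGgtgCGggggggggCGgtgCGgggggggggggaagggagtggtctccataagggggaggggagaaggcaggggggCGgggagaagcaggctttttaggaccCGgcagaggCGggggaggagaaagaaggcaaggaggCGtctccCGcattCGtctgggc
Igf1r, plus strand, chr7:67952007-67952306: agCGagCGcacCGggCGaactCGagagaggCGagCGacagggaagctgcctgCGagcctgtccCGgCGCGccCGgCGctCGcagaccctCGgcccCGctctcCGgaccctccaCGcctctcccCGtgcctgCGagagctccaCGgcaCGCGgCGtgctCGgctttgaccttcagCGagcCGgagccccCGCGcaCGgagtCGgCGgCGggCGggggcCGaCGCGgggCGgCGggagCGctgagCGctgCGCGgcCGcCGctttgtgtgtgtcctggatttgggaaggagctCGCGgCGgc
Igf1, plus strand, chr10:87860861-87861160: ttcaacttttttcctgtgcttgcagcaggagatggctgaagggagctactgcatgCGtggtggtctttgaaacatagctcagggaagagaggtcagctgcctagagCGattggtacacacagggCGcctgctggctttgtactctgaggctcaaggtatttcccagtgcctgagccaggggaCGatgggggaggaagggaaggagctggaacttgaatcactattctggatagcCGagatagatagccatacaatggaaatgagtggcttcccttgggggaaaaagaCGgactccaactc

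The Igfbp3 promoter held 37 CpG sites, more than 94.4% of the 32851 promoters in the table. The first Igfbp2 promoter held 18 and its second, about 1 kb downstream, held 14. Igf1r had 48 CpG sites, and only 1.22% of all promoters had as many or more. Igf1, at the other end, had 6. The windows of Igf1, Igfbp3 and Igfbp4 lie inside the annotated gene, downstream of its outermost start. For Igf1 the gene begins at base 87858265 and the window at base 87860861. The CpG content at the outermost starts of these genes was not described. Igfbp7 had 33, Igfbp4 27, Igfbp5 10 and Igfbp6 8, beside a median of 7 over all promoters and of 20 over promoters of the genes tested. The letters GGGCGG, a GC box bound by Sp1, searched on both strands, occurred 3 times in the first Igfbp2 promoter, 2 times in that of Igf1r and 4 times in that of Igfbp7, and in 35.7% of all promoters and 62.1% of those of genes tested. The letters TATAAA, searched on both strands, occurred once each in the Igfbp4 and Igfbp6 promoters and in 13.6% of all promoters and 7.22% of those of genes tested. No match in these windows says only that the letters are not there.

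Levels of different genes were compared as FPKM, the length-corrected fragment measure that the authors deposited. Igfbp7, a secreted protein of the matrix and of senescent cells, led with 476 and 419 FPKM in Dnmt3l-KO and 492 and 484 FPKM in WT, above 99.0% of the genes tested. Igfbp4, which mostly holds IGFs away from their receptor, came next with 61.6 and 76.5 FPKM in Dnmt3l-KO and 46.3 and 83.1 FPKM in WT. Below it stood Igf1r, Igfbp5 and Igfbp6, with means over the 4 libraries of 23.4, 22.8 and 22.5 FPKM. The ranges of Igf1r and Igfbp5 overlapped, as did those of Igfbp5 and Igfbp6, so the order of these 3 is not settled beyond their spread. Igfbp3 followed with a mean of 15.1 FPKM and Igfbp2 with 7.89 FPKM. Igf1 stood last, at 0.442 and 0.687 FPKM in Dnmt3l-KO and 0.591 and 0.435 FPKM in WT, and 17.7% of the genes tested had a lower level. Every other neighbouring pair in this order kept its order in 4 of 4 libraries without overlap. Igfbp5 and Igfbp3, which are not neighbours in it, did overlap, and Igfbp5 was below Igfbp3 in Dnmt3l-KO replicate 1. Their order by mean is therefore not settled beyond their spread either.

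Igfbp7 alone made up 80.2% and 71.7% of the summed FPKM of Igfbp2 to Igfbp7 in Dnmt3l-KO, and 81.5% and 76.8% in WT. The sum of the 6 binding proteins was 593 and 584 FPKM in Dnmt3l-KO and 604 and 630 FPKM in WT. With Igfbp7 left out, the other 5 summed to 118 and 165 FPKM in Dnmt3l-KO and 112 and 146 FPKM in WT, which overlap. Igfbp4 held 52.3% and 46.3% of that smaller sum in Dnmt3l-KO, and 41.4% and 57.0% in WT. Igfbp5 held 10.7% and 21.6% of it in Dnmt3l-KO, and 21.2% and 13.1% in WT. The shares of these members therefore varied as much between replicates as between genotypes. The ratio of Igfbp3 to Igfbp2 FPKM did not overlap, at 2.33 and 2.77 in Dnmt3l-KO and 1.30 and 1.54 in WT. Because both genes were singled out after their values were seen, this ratio is a description.

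**Figure D1:**
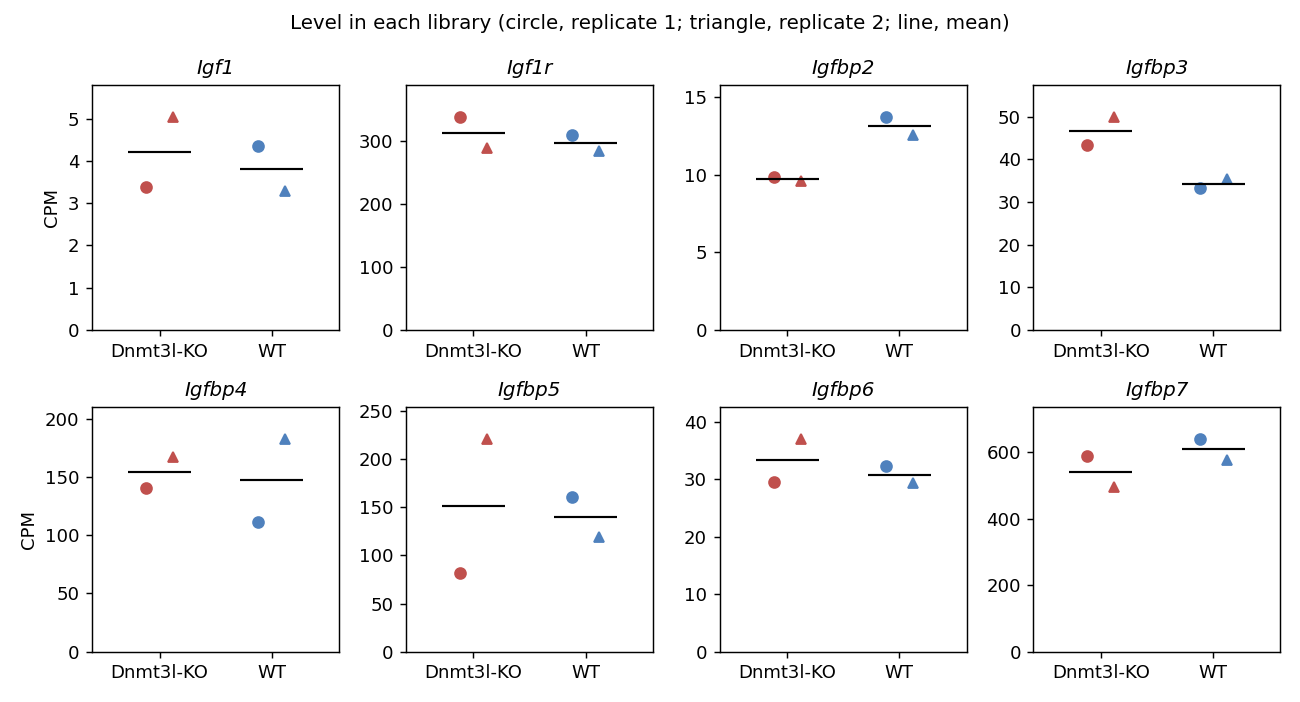
CPM in each library (one panel per gene, each with its own linear axis from 0) for the 8 IGF axis genes, with Dnmt3l-KO left and WT right; points are libraries and horizontal lines are means of 2. Igfbp3 lies higher in both Dnmt3l-KO libraries (43.4 and 49.99 CPM against 33.2 and 35.5 CPM in WT) and Igfbp2 lower, while Igfbp5 spreads from 81.5 to 221 CPM within Dnmt3l-KO.

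The ligand Igf1, a peptide made mainly in liver but also by mesenchymal cells, had 169 and 211 counts in Dnmt3l-KO and 205 and 137 counts in WT. This was 3.39 and 5.05 CPM in Dnmt3l-KO and 4.35 and 3.28 CPM in WT. Both genotypes spanned nearly the same range. Dnmt3l-KO over WT, the log2 fold change was 0.14 ± 0.29 (SE, 95% interval -0.61 to 0.89; adjusted p = 0.999 by the quasi-likelihood test of edgeR), which bounds a change of Igf1 only loosely. Igf1 lies on the same chromosome as Dnmt3l, 9.79 Mb beyond its end, so an effect of linked DNA cannot be told apart from one of the knockout there. Of its 19 annotated transcripts, 14 had a count in some library. Variant 4 took 57.4% and 56.9% of Igf1 counts in Dnmt3l-KO and 49.8% and 70.8% in WT, and variant 1 took 39.1% and 14.2% in Dnmt3l-KO and 34.1% and 19.0% in WT. With so few reads per library, the make-up of Igf1 transcripts did not separate the genotypes. An antisense gene, Igf1os, overlaps 5117 bases of Igf1 and was not analysed here. The sources used here do not say whether counting used the strand.

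Igf1r, the receptor through which both IGFs signal, had 338 and 288 CPM in Dnmt3l-KO and 309 and 283 CPM in WT. The genotypes overlapped in CPM. FPKM weight each transcript by its length and lack the scaling used for CPM. By this measure Igf1r was higher in both Dnmt3l-KO libraries, at 25.8 and 22.9 FPKM against 22.3 and 22.4 FPKM in WT. The share of all genes that separated so in FPKM was not counted, so this is no result about Igf1r. In the counts, the log2 fold change was 0.08 ± 0.12 (SE, 95% interval -0.24 to 0.40; edgeR adjusted p = 0.999), so a change of the summed receptor transcript beyond about 0.40 log2 units upward lies outside the interval.

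Igfbp3, which carries most IGF in plasma in a complex with an acid-labile subunit and also acts on cells directly, had 43.4 and 49.99 CPM in Dnmt3l-KO and 33.2 and 35.5 CPM in WT. Both Dnmt3l-KO libraries lay above both WT libraries. The means were 46.7 ± 4.63 CPM in Dnmt3l-KO and 34.3 ± 1.63 CPM in WT (SD, n = 2 each). Its log2 fold change was 0.44 ± 0.11 (SE, 95% interval 0.15 to 0.74), with an unadjusted p of 0.0116 and a Benjamini-Hochberg adjusted p of 0.999 over all 14760 genes in edgeR. By p it ranked 113 of these genes. In the authors' deposited table its single transcript had a log2 fold change of 0.41 ± 0.20 (the authors' standard error), with an unadjusted p of 0.0389 and an adjusted p of 0.858 from DESeq2; there, 5.32% of transcripts with an adjusted p had an unadjusted p under 0.05. Since its libraries did not overlap, leaving out any 1 library could hardly turn the sign. The fold change was then 0.34 to 0.54. Its neighbour Igfbp1, whose gene ends 3539 bases from that of Igfbp3, had 0 counts in all 4 libraries.

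Igfbp2, which is abundant in fetal tissues and binds IGF2 more tightly than IGF1, had 9.82 and 9.62 CPM in Dnmt3l-KO and 13.7 and 12.5 CPM in WT. The Dnmt3l-KO libraries nearly coincided and both lay below WT. The means were 9.72 ± 0.143 CPM in Dnmt3l-KO and 13.1 ± 0.837 CPM in WT (SD, n = 2 each). Its log2 fold change was -0.43 ± 0.12 (SE, 95% interval -0.75 to -0.11; edgeR unadjusted p = 0.0173, adjusted p = 0.999), and the gene ranked 174 by p. Its predicted second transcript, variant X1, made up 10.2% and 7.21% of Igfbp2 counts in Dnmt3l-KO and 5.11% and 0.956% in WT. The gene has 2 transcripts, so a lower share of the main transcript is by itself a higher share of variant X1. Variant X1 had only 50 and 29 counts in Dnmt3l-KO and 33 and 5 counts in WT, which overlap. The main transcript gave the difference of the gene, with -0.44 ± 0.25 on the log2 scale and an unadjusted p of 0.0807 in the authors' deposited table.

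Igfbp2 and Igfbp5 sit tail to tail on chromosome 1, with their ends 5590 bases apart, but their libraries did not follow each other. Igfbp5, the most conserved of the family and a matrix-bound binding protein, had 81.5 and 221 CPM in Dnmt3l-KO and 161 and 119 CPM in WT. The Dnmt3l-KO libraries enclosed both WT libraries. Their gap of 1.44 log2 units was matched or passed by only 3.64% of the genes tested. Its log2 fold change was 0.11 ± 0.48 (SE, 95% interval -1.14 to 1.36; edgeR adjusted p = 0.999), the widest interval of the 8. It was -0.78 without Dnmt3l-KO replicate 2 and 0.66 without Dnmt3l-KO replicate 1, so no direction can be given for Igfbp5.

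The order of Igfbp5 over the libraries, highest in Dnmt3l-KO replicate 2 and lowest in Dnmt3l-KO replicate 1, was shared by 9 of the 10 fibroblast markers, all but Vim. Over all genes tested, 14.0% had that order. The part of the fibroblast markers in the Igfbp5 values was not tested. By the distance between log2 CPM profiles over the 4 libraries, the gene most like Igfbp5 among 8547 well-expressed genes was Col5a3, a chain of type V collagen, at a distance of 0.13, and no gene came within 0.1.

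**Figure D2:**
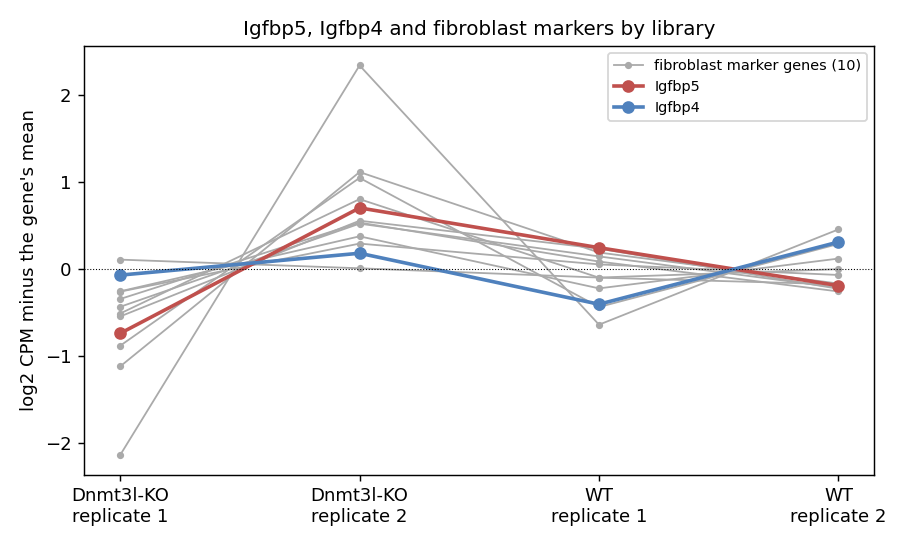
Log2 CPM of Igfbp5, Igfbp4 and the 10 fibroblast markers in each library, each centred on its own mean over the 4 libraries; a line joins the values of 1 gene, Dnmt3l-KO libraries are left and WT libraries right. Igfbp5 and 9 of 10 markers are lowest in Dnmt3l-KO replicate 1 and highest in Dnmt3l-KO replicate 2, while Igfbp4 is lowest in WT replicate 1 and highest in WT replicate 2.

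Igfbp4 had 141 and 167 CPM in Dnmt3l-KO and 112 and 183 CPM in WT. Here the WT libraries enclosed both Dnmt3l-KO libraries, and the WT gap of 0.71 log2 units was reached by 7.16% of the genes tested. The log2 fold change was 0.06 ± 0.26 (SE, 95% interval -0.60 to 0.73; edgeR adjusted p = 0.999), and without WT replicate 1 it was -0.25, against 0.46 without WT replicate 2. A stretch of 205 bases of the Igfbp4 transcript is 90.7% identical to one in Hook3, and no other member shared 200 bases at 90% identity with another gene.

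Igfbp6, which prefers IGF2 to IGF1, had 29.6 and 37.1 CPM in Dnmt3l-KO and 32.3 and 29.3 CPM in WT, with a log2 fold change of 0.11 ± 0.14 (SE, 95% interval -0.26 to 0.48; edgeR adjusted p = 0.999). Its genotypes overlapped. Igfbp7 had 588 and 497 CPM in Dnmt3l-KO and 642 and 577 CPM in WT, with a log2 fold change of -0.17 ± 0.13 (SE, 95% interval -0.51 to 0.17; edgeR adjusted p = 0.999). The CPM of Igfbp7 overlapped by a small margin, and its FPKM were lower in both Dnmt3l-KO libraries. How many of all genes separated so in FPKM was not counted. Igfbp7 shares 85 bases with Polr2b on the opposite strand and 7085 with the antisense gene Gm34648, which was not analysed here.

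**Figure D3:**
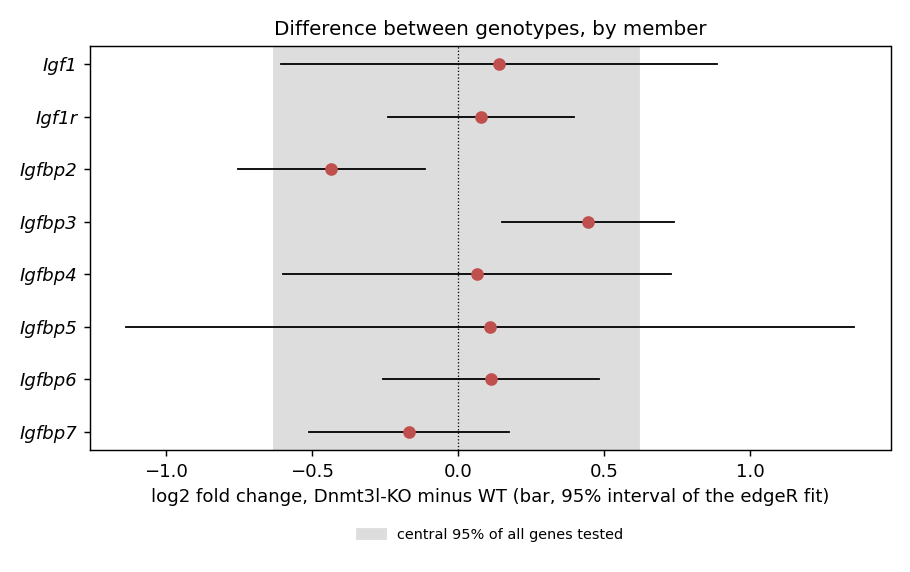
Log2 fold change of Dnmt3l-KO over WT for the 8 genes from edgeR (points, with lines for 95% confidence intervals); the grey band spans the central 95% of all 14760 genes, -0.63 to 0.62. Of the 8 intervals, those of Igfbp3 (0.15 to 0.74) and Igfbp2 (-0.75 to -0.11) leave out 0, and that of Igfbp5 is the widest (-1.14 to 1.36).

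Across the 8 members, 0 passed an edgeR adjusted p of 0.05, where 0.0203% of the 14760 genes tested did. At an unadjusted edgeR p of 0.05, 2 of 8 passed, beside 4.15% of all genes tested, 2.34% in the higher and 1.81% in the lower direction. DESeq2 on the same summed counts also called 0 members, beside 0.18% of all genes with an adjusted p, and 2 members had an unadjusted p under 0.05, beside 2.42% of those genes. In 2 of 8 members no Dnmt3l-KO library fell within the WT range and both stood on the same side of it; 32.8% of all genes tested did so, 16.2% above and 16.5% below. The members' median log2 fold change was 0.09, beside 0.01 over all genes tested. The 2 of 8 that did not overlap are near the background share of 32.8% and are no result about the members. The 2 of 8 at an unadjusted p exceed their background share, but 0 passed the adjusted threshold. As the members were chosen with earlier results of these data known, this excess is a description and not a test. Leaving out a library leaves 1 in its genotype, which is then assumed to vary like the other genotype's 2, so such fits follow the spread of that other genotype. Without WT replicate 1 or WT replicate 2, 0 members had an unadjusted edgeR p under 0.05, beside 1.31% and 1.46% of all genes tested in the same fits. Without Dnmt3l-KO replicate 1 there were 4, beside 12% of all genes, and without Dnmt3l-KO replicate 2 there were 3, beside 13.3%.

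Below the gene level, variant X1 of Igf1r, a predicted RefSeq transcript (XM_006540641.1), was singled out after its values were seen. It had 518 and 566 counts in Dnmt3l-KO and 1172 and 1022 counts in WT, or 10.4 and 13.6 CPM in Dnmt3l-KO and 25.04 and 24.4 CPM in WT. Both Dnmt3l-KO libraries were well below both WT libraries. The share of all transcripts that separated so was not counted. It made up 3.07% (exact 95% binomial interval 2.82 to 3.35) and 4.71% (4.34 to 5.10) of Igf1r counts in Dnmt3l-KO, and 8.05% (7.62 to 8.51) and 8.66% (8.16 to 9.18) in WT. These intervals cover counting error only, and the split of reads among transcripts of one gene, which share most of their sequence, is itself an estimate. An exact permutation test of 2 against 2 libraries cannot give a p below 0.333.

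In a fit of all transcripts, edgeR gave Igf1r variant X1 a log2 fold change of -1.05 ± 0.20 (SE), with an unadjusted p of 0.00452 and an adjusted p of 0.9999. Of 39633 transcripts, 4.12% had an edgeR unadjusted p under 0.05 and 0.00252% an adjusted one. DESeq2 on the same counts, tried after the data were seen, gave -1.04 ± 0.28 and an adjusted p of 0.0470, where 0.501% of 39137 transcripts passed. The authors' deposited table gave -0.90 ± 0.24 and an adjusted p of 0.0477, where 0.441% of 28097 transcripts passed. It was the only 1 of the 33 member transcripts past 0.05 there, but many of the 33, most of them of Igf1, had no adjusted p. The 3 estimates came from the same libraries, and the authors' too was from DESeq2, so their like size and direction add no separate support. DESeq2 left the adjusted p just under the threshold, and edgeR far from it. As the libraries of variant X1 did not overlap, leaving out any 1 could hardly turn its sign. The edgeR estimate was then -1.25 to -0.87.

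Of the other 5 Igf1r transcripts, variant X4 had 18 and 0 counts in Dnmt3l-KO and 91 and 8 counts in WT, and its log2 fold change was -2.53 ± 1.98 (SE; edgeR unadjusted p = 0.263). Its counts overlapped between genotypes. Variant X5, with 217 and 0 counts in Dnmt3l-KO and 85 and 16 counts in WT, spread as widely. The curated transcript NM_010513.2 took 71.3% and 72.4% of Igf1r counts in Dnmt3l-KO and 74.2% and 64.9% in WT. With variant X1 removed, Igf1r summed to 327 and 274 CPM in Dnmt3l-KO and 284 and 258 CPM in WT, still overlapping. Most of the receptor's count came from transcripts other than X1 in both genotypes. In Igfbp7 the minor variant 1 made up 0.283% and 0.472% of counts in Dnmt3l-KO and 0.513% and 0.627% in WT. Igfbp3, Igfbp4, Igfbp5 and Igfbp6 each have 1 transcript in the table.

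**Figure D4:**
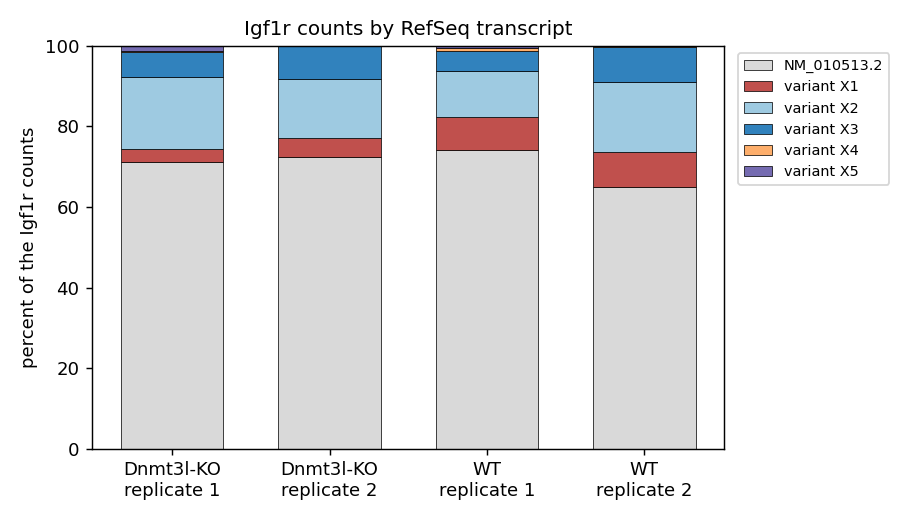
Share of Igf1r counts (percent) assigned to each of its transcripts in each library, Dnmt3l-KO libraries left and WT libraries right. Variant X1 holds 3.07% and 4.71% in Dnmt3l-KO against 8.05% and 8.66% in WT, while NM_010513.2 holds 64.9% to 74.2% in all 4 libraries.

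The rest of the pathway was followed in 7 lists of 67 genes, of which 59 passed the filter on low counts and 5 had 0 counts in all libraries (Insrr, Ins1, Ins2, Igfbp1 and Adam28). None of the 59 passed an edgeR adjusted p of 0.05, and 3 had an unadjusted p under 0.05, all higher in Dnmt3l-KO. Of the 59, 45 had a positive and 14 a negative fold change, with a median of 0.09 on the log2 scale, beside 7575 positive and 7185 negative over all genes tested. Without Dnmt3l-KO replicate 1 there were 36 positive and 23 negative, and without WT replicate 2 there were 35 and 24. The libraries did not overlap in 33.9% of the 59, close to the 32.8% of all genes.

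Among ligands and receptors, Igf2, the fetal growth factor that shares Igf1r, had 916 and 844 CPM in Dnmt3l-KO and 677 and 543 CPM in WT. Its libraries did not overlap. Igf2 had a log2 fold change of 0.53 ± 0.15 (SE; edgeR unadjusted p = 0.0149, adjusted p = 0.999), and an antisense gene, Igf2os, overlaps it with 63 to 133 counts a library. In FPKM, Igf2 stood at 219 ± 5.84 in Dnmt3l-KO and 147 ± 13.5 in WT (SD, n = 2 each), beside 0.565 ± 0.173 in Dnmt3l-KO and 0.513 ± 0.110 in WT for Igf1, so Igf2 was the main IGF transcript of these fibroblasts in every library. Igf2r, which clears IGF2 into lysosomes, had 692 and 706 CPM in Dnmt3l-KO and 664 and 567 CPM in WT, with a log2 fold change of 0.18 and an edgeR unadjusted p of 0.195. Insr, the insulin receptor, had 0.09 on the log2 scale, and Igfals, the acid-labile subunit that joins Igfbp3 in serum, and Igfbpl1 did not pass the filter.

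At the cell surface, Lrp1, an endocytic receptor that binds Igfbp3, had 1619 and 1686 CPM in Dnmt3l-KO and 1317 and 1233 CPM in WT, and its log2 fold change was 0.37 ± 0.11 (SE; edgeR unadjusted p = 0.0204, adjusted p = 0.999). Both Dnmt3l-KO libraries were above WT. Tmem219, another receptor described for Igfbp3, was lower in both Dnmt3l-KO libraries, with 6.63 and 8.66 CPM against 8.73 and 9.11 CPM in WT, and a log2 fold change of -0.22 with an edgeR unadjusted p of 0.275. In FPKM, Tmem219 overlapped between genotypes, at 6.25 and 8.52 in Dnmt3l-KO and 7.80 and 8.91 in WT. No direction is therefore given for Tmem219, and neither of these proposed Igfbp3 receptors passed the adjusted threshold. The 7 surface partners had a median of 0.03.

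The 9 tested proteases of binding proteins and their inhibitors had a median of -0.01, and in all 9 the libraries overlapped. Without WT replicate 1 that median was 0.11, and without WT replicate 2 it was -0.22, so it gives no direction. Pappa, which cuts Igfbp4, had 225 and 183 CPM in Dnmt3l-KO and 253 and 146 CPM in WT. Stc1, an inhibitor of Pappa, and Adam12, a protease that cuts Igfbp3 and Igfbp5, had the smallest p of this list, with log2 fold changes of -0.20 and -0.22 and edgeR unadjusted p of 0.350 and 0.349.

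Inside the cell, all 11 tested adaptors had positive fold changes under TMM scaling, with a median of 0.14, and 9 of 11 under upper-quartile scaling; the libraries overlapped in 9 of them. Without Dnmt3l-KO replicate 1 or WT replicate 2, 8 of 11 were positive. Grb2, which links the receptor to Ras, had 59.2 and 52.2 CPM in Dnmt3l-KO and 45.3 and 45.5 CPM in WT, a log2 fold change of 0.30 ± 0.11 (SE; edgeR unadjusted p = 0.0376, adjusted p = 0.999). Irs1, the main docking protein of Igf1r, had 178 and 204 CPM in Dnmt3l-KO and 154 and 182 CPM in WT, which overlap, with a log2 fold change of 0.19. The 20 genes of the PI3K, AKT and mTOR arm had a median of 0.10, with 15 positive and 5 negative. Akt2, a kinase of this arm, had the smallest p there, at 107 and 106 CPM in Dnmt3l-KO and 90.3 and 96.1 CPM in WT, with a log2 fold change of 0.19 and an edgeR unadjusted p of 0.0785. Foxo3, a transcription factor that AKT keeps out of the nucleus, followed with 0.19 and an edgeR unadjusted p of 0.129.

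The 6 genes of the growth hormone arm, which drives Igf1 in liver, had a median of 0.12. Its genes with the smallest p were Cish, a feedback inhibitor of the JAK and STAT pathway, with a log2 fold change of 0.28 and an edgeR unadjusted p of 0.223, and Ptpn1, a phosphatase of insulin and growth hormone signalling, with 0.21 and 0.226. The 3 Igf2bp genes, whose proteins bind Igf2 mRNA among others, had a median of 0.10. Of these, Igf2bp3 and Igf2bp2 had log2 fold changes of 0.11 and 0.08, with edgeR unadjusted p of 0.273 and 0.382.

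**Figure D5:**
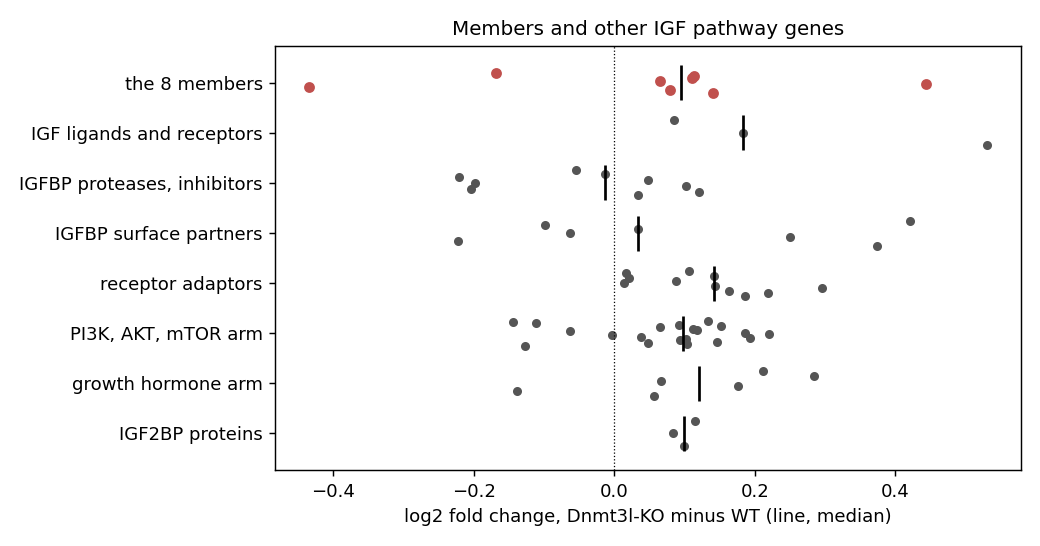
Log2 fold change of Dnmt3l-KO over WT from edgeR for the 59 tested pathway genes in 7 lists; each point is a gene and each vertical line the median of its list, with the 8 members in red on top. The 11 adaptors are all above 0 under this TMM scaling and 9 of them under upper-quartile scaling (median here 0.14), while the 9 proteases and inhibitors centre on -0.01.

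The genes most like the other members over the 4 libraries were Gpt2 for Igf1, at a distance of 0.06 between log2 CPM profiles, Tmem181a for Igf1r at 0.01, Atp6v0c for Igfbp2 at 0.05, Fam189b for Igfbp3 at 0.03, Lgals3 for Igfbp4 at 0.08, Zfp326 for Igfbp6 at 0.02 and Vti1b for Igfbp7 at 0.02. Atp6v0c, a proton pump subunit, has a near-identical copy in the genome, so its count is uncertain. Within a distance of 0.1 there were 364 genes for Igf1r, 150 for Igfbp7 and 88 for Igfbp6, but 10 for Igfbp2, 9 for Igfbp3, 7 for Igf1, 1 for Igfbp4 and 0 for Igfbp5. Flat profiles such as that of Igf1r are shared by many genes, and the profiles of Igfbp4 and Igfbp5, which differ most between replicates, by almost none.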

How the data were processed

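RNA sequencing of 2 Dnmt3l-KO and 2 WT MEF libraries was analysed from 1 transcript table. The table's counts are estimated counts that the authors rounded to whole numbers before they were deposited, and FPKM stand beside them, per the file headers. The authors also deposited DESeq2 results per transcript, namely a mean signal (baseMean), log2 fold changes with standard errors, a test score (stat) and p-values. TopHat2 2.0.12, Cufflinks 2.2.1, eXpress 1.4.1, DESeq2 1.8.0 and the build mm10 are named in the submitters' processing notes, without roles. How reads shared by several transcripts were divided, and the use of strand, are not stated there.

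Counts were summed per symbol and tested with edgeR 4.0.16 (TMM, filterByExpr, robust quasi-likelihood, Benjamini-Hochberg over 14760 genes, threshold 0.05), fitted as Dnmt3l-KO over WT in R 4.3.3. CPM use TMM-scaled totals, and library totals were 40681328 to 51465395. The test was also run on counts simulated from its own fitted model, which cannot show how it behaves on the spread of these libraries. The members and gene lists were chosen with earlier results of these data known. Named genes are the 8 members, the 2 tested genes of smallest p in each pathway list, and for each member the most alike gene (Euclidean distance of centred log2 CPM, prior count 2, mean of at least 10 CPM). Pappa, Insr, Igfals, Igfbpl1, Igf1r variants X1, X4 and X5 and Igfbp2 variant X1 were named outside that rule. Markers of 8 cell types were listed. Transcript sequences were compared with BLAST 2.17.0 (at least 200 bases, 90% identity), and promoters came from RefSeq. Alternatives were other scalings and filters, DESeq2 1.42.0, limma 3.58.1 (voom, or log2(FPKM + 1) and log2(FPKM + 0.1)), a replicate block, transcripts as features and leaving out each library.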

Additional observations from a re-analysis of the deposited data

How the results depend on the processing

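Without any 1 library, edgeR called 2 to 6 genes, against 3 with all 4, and 0 members; each such fit has 1 library in a genotype, assumed to vary like the other genotype's 2. DESeq2 called 31 genes, limma 6 on log2(FPKM + 1) and 9 on log2(FPKM + 0.1), edgeR 8 without a filter on low counts and 1 with transcripts as features, and each called 0 members. DESeq2 on transcripts, chosen after seeing the data, called 196, among them 1 member transcript, Igf1r variant X1 (log2 fold change -1.04). Igfbp2 (-0.50 to -0.32), Igfbp3 (0.34 to 0.54) and Igfbp7 (-0.30 to -0.05) kept their direction in 13 of 13 alternatives. For Igfbp2 and Igfbp3, whose libraries did not overlap, leaving out a library could hardly turn it. All alternatives drew on the same libraries, so a kept direction adds no separate support. The main 95% interval of Igfbp7, -0.51 to 0.17, includes 0. Leaving out 1 library turned the direction of Igf1 (-0.18 to 0.40), Igf1r (-0.044 to 0.19), Igfbp4 (-0.25 to 0.46), Igfbp5 (-0.78 to 0.66) and Igfbp6 (-0.059 to 0.26). Igfbp5 was also -0.041 with limma-voom and -0.0021 on log2(FPKM + 0.1). The cause was not tested.

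With the replicate number as a block, 4 genes and 0 members were called, and Igfbp5 was -0.045. The gaps between replicates correlated at 0.0999 across 14760 genes. The labels do not state a pairing and this correlation cannot decide it, so whether equal replicate numbers mark pairs is not known. With 2 libraries a genotype, the 95% interval of Igfbp5, -1.14 to 1.36, includes a change of 1 log2 unit in either direction, and that of Igf1, -0.61 to 0.89, does not.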
